A study of Mus musculus with 4 samples.

Results

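The genes for the proteins of the cytosolic ribosome were read as a group from an RNA-seq experiment on Abl1-edited mouse 32D cells (32Dcl3 in the study's text). Members were chosen by name: gene symbols beginning with Rpl or Rps followed by a number, with the paralog endings a, x, l, l1 and al, plus Rplp0, Rplp1, Rplp2 and Rpsa, and without rows marked as pseudogenes by the ending -ps. The rule found 83 of the 23756 genes in the count table, 52 of the large and 31 of the small subunit, and all 83 were among the 16535 genes with enough counts to be tested. By annotation 81 are protein coding, while Rpl6l and Rpl32l are processed pseudogenes that the rule nevertheless takes in.

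32Dcl3 is a mouse hematopoietic line that needs the cytokine interleukin-3 (IL-3) to grow. In all 4 libraries Abl1, the gene of a tyrosine kinase, had been targeted by CRISPR/Cas9. Both groups carry the same genotype label (Abl1 KO). One group was cultured with IL-3 (Abl1ko/IL3+, 2 libraries) and the other without it (Abl1ko/IL3-, 2 libraries), and the comparison asks how expression differs between these cultures. The edited populations came from 2 guides, and the study's methods also describe the use of single clones. The labels tie neither guides nor clones to libraries. Unedited cells were not analysed here. The deposited description gives biological duplicates. In the study's text the cells without IL-3 are growth factor-independent cells that grew out after stepwise removal of the cytokine, so outgrowth and the absence of the cytokine cannot be told apart. The labels do not give how long the sequenced cultures had been without it.

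A ribosome joins a small subunit, which reads the messenger RNA, to a large subunit, which forms the peptide bonds, and each subunit carries a fixed set of proteins on a scaffold of ribosomal RNA. Growing cells, hematopoietic progenitors among them, spend much of their transcription on these genes. Most ribosomal protein mRNAs are short and begin with a C and a run of pyrimidines, the 5' terminal oligopyrimidine (TOP) motif, through which mTOR and Larp1 control their translation. Cytokine signalling reaches them through mTOR, and their transcription in part through Myc.

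The start-site windows of 7 members are shown as examples. Rpl38 and Rps12 had 2 of the highest, and Rpl7a, Rpl15, Rps18 and Rplp0 4 of the lowest, fold changes. Rps6 is a widely used marker of the pathway. Each window runs from 40 bases before the annotated start through the first 20 transcribed bases, 5' to 3' on the gene's strand, from RefSeq (GRCm38.p6). Capitals mark the pyrimidine run of at least 5 bases nearest to the start, where one lies within 5 bases before or 10 after it.
Rpl38: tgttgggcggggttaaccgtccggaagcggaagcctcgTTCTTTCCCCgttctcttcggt
Rps12: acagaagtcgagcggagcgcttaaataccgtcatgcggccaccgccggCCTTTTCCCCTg
Rpl7a: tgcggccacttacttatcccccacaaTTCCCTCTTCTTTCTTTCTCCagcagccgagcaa
Rpl15: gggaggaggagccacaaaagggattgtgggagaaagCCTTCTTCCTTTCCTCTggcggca
Rps18: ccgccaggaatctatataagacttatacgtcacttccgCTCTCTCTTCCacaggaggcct
Rplp0: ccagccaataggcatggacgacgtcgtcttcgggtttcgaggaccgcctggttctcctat
Rps6: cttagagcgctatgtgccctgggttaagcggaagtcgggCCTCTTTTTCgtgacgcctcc
The windows lie at chr11:114668540-114668599 (plus strand), chr10:23787190-23787249 (minus), chr2:26910767-26910826 (plus), chr14:18270967-18271026 (minus), chr17:33955646-33955705 (minus), chr5:115559427-115559486 (plus) and chr4:86857348-86857407 (minus), in the same order. Rpl38, Rpl15, Rps18 and Rps6 have a C at the annotated start with at least 4 further pyrimidines, and the run of Rpl7a spans the start. In Rps12 the run begins at base 9, and Rplp0 has none in that range.

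Promoters were matched by symbol for 62 of the 83 members, with 74 annotated starts among 32851 in the table. A C at the start followed by 4 pyrimidines was present at 18.9% of the members' starts and at 2.51% of all starts. It was present at 14.3% of the starts of translation factors known for TOP motifs and at 0.0% of those of mitochondrial ribosomal proteins. The looser criterion, a pyrimidine run near the start, was met by 59.5% of the members' starts and 38.0% of all. For the translation factors and the mitochondrial ribosomal proteins it was met by 47.6% and 46.7%. The hexamer CGGAAG, the core of sites of ETS factors such as Gabpa, occurred on either strand within 250 bases before to 50 after the start in 59.5% of the members' promoters and 16.9% of all promoters. The octamer AAGATGGC (YY1) was found in 10.8% against 2.75%, and the E-box CACGTG, to which Myc binds, in 10.8% against 7.15%. These motifs were not confined to the members. CGGAAG occurred in 53.3% of the promoters of mitochondrial ribosomal proteins and 38.1% of those of the translation factors. The octamer and the E-box each occurred in 19.0% of the translation factors' promoters. Among the mitochondrial ribosomal proteins the E-box occurred in 9.33%. There the octamer occurred in 12 of 75 promoters, against 8 of 74 for the members. These are matches of letters at annotated starts, and neither binding nor the starts used in these cells were measured. A member without a match is thus not shown to lack the TOP motif. The 14 members with a C and 4 pyrimidines at the start had a median log2 fold change of 0.05, and the 48 matched members without one 0.23. Their ranges overlapped, from -0.57 to 1.13 and from -0.63 to 0.92.

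Ribosomal protein mRNA was abundant in every library. The 83 genes held 10.7% of all counts in Abl1ko/IL3+ replicate 1, 15.8% in Abl1ko/IL3+ replicate 2, 15.6% in Abl1ko/IL3- replicate 1 and 14.5% in Abl1ko/IL3- replicate 2. The 95% Wilson interval of the first share, 10.73% to 10.74%, shows how little counting error adds at these depths. The mean was 13.2% ± 3.56 (SD, n = 2) with and 15.1% ± 0.725 (SD, n = 2) without IL-3. The difference of 1.81 percentage points was smaller than the gap between the replicates with IL-3, and the groups overlapped. Without Abl1ko/IL3+ replicate 1 the difference was -0.70 points. An exact permutation test of 2 against 2 libraries cannot give a two-sided p below 0.333, so none is reported for single values. In bulk RNA, fewer cells of a kind and less RNA per cell cannot be told apart.

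Levels per length varied widely between members. By FPKM (fragments scaled by gene length and library depth, as deposited), the highest means over the 4 libraries were 4522 for Rps15, 2838 for Rplp1, 2680.1 for Rpl36, 2406 for Rpl38 and 2389 for Rps29. The lowest were 1.64 for Rpl21, 2.45 for Rpl3l and 13.1 for Rpl29. Rpl3l is a paralog of Rpl3 that is mainly known from muscle, whereas the reads of Rpl21 lie mostly in other rows, as given with the pseudogenes. The order among the highest depends on the gene model, because exons of all isoforms are summed in the FPKM length. With the principal mRNA as the length, Rps15 stayed first.

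No ribosomal protein gene passed the test for a difference between cultures without and with IL-3. The quasi-likelihood test of edgeR, adjusted by Benjamini-Hochberg, called 0 of 83 members at an adjusted p under 0.05, against a background of 0.0% of the 16535 genes tested. At an unadjusted p under 0.05 it called 0 of 83 members, where the background was 5.91%, and the lowest adjusted p of a member was 0.849. DESeq2 also called 0 of 83, against 1.64% of all genes. The absence of calls does not show that the levels were equal: the standard error of the log2 fold change was 0.46 for Rpl38 and 0.41 for Rps6.

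The fitted changes leaned to the positive side. The members' median log2 fold change was 0.15, with the middle 50 percent between -0.08 and 0.38, whereas all genes tested had a median of -0.03. A positive value was fitted for 56 and a negative one for 27 members, that is 67.5% positive against 48.1% of all genes. The large subunit genes had a median of 0.14 and the small subunit genes 0.15. In the plot of these values most standard errors cross 0 in both subunits.

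**Figure D1:**
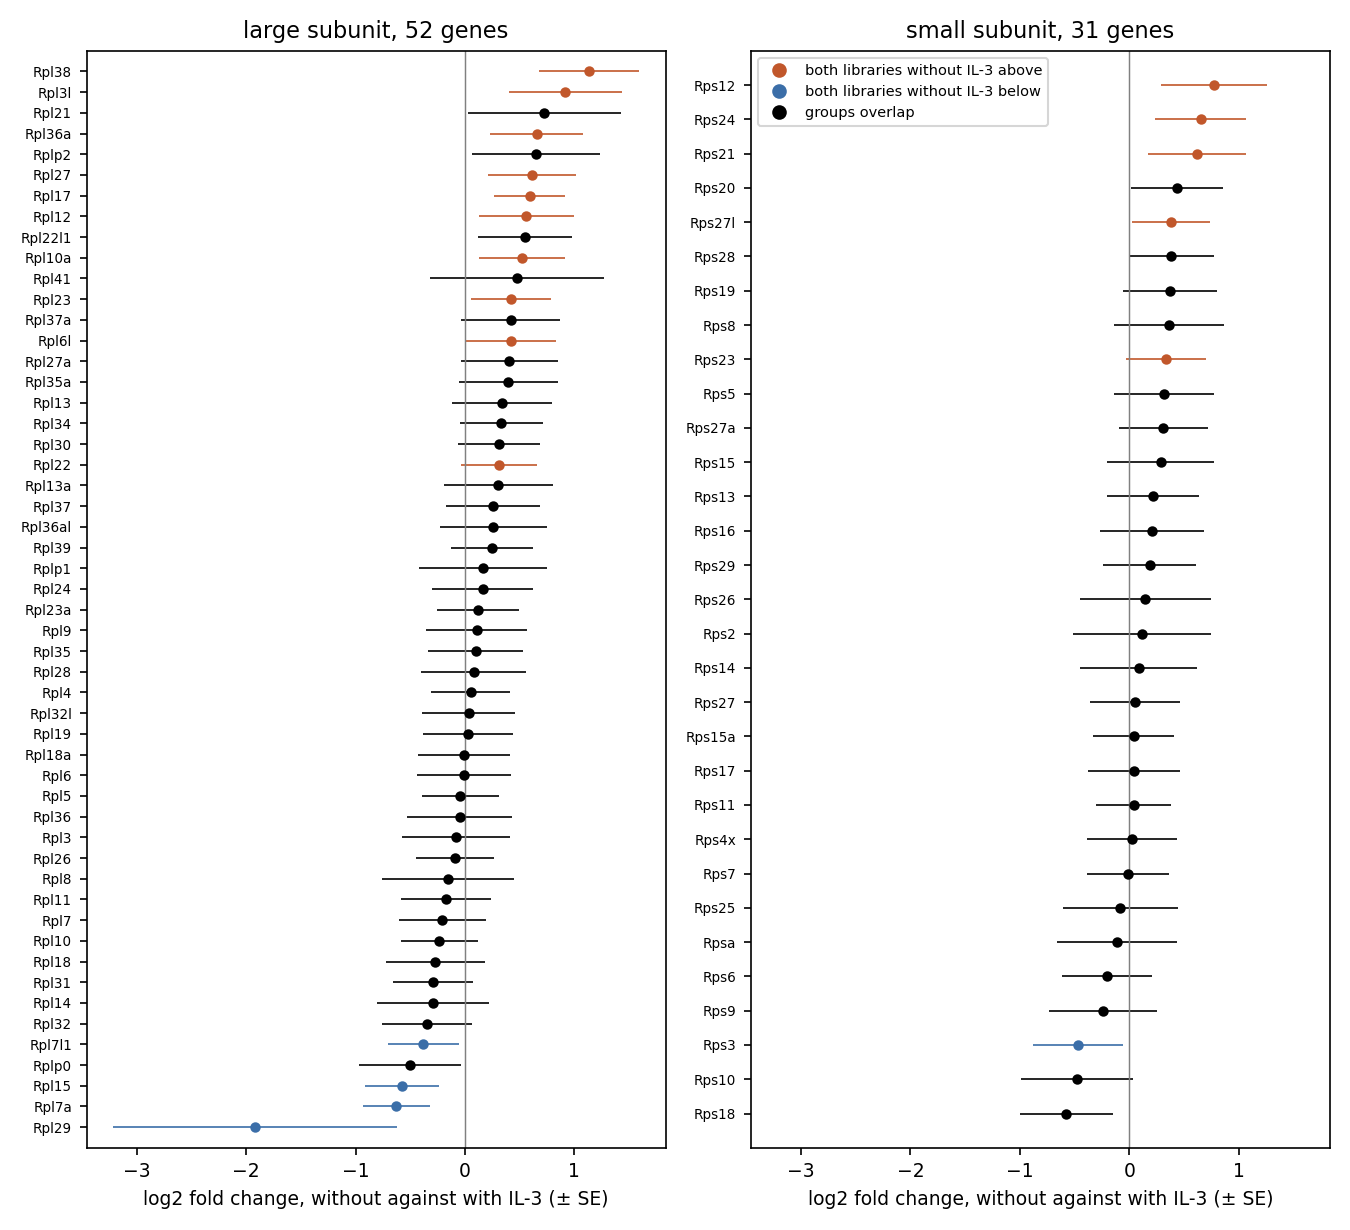
Log2 fold change between cultures without and with IL-3 (x axis) of the 52 large and 31 small subunit genes (y axis, sorted), as fitted by edgeR from 2 libraries a group, with bars of 1 SE. Orange points mark the 15 genes for which both libraries without IL-3 lie above both with it, blue points the 5 for which both lie below, and black points the 63 whose groups overlap.

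The lean depended on single libraries. Each gene's level in a library was expressed as its log2 deviation, log2 of TMM-scaled CPM (counts scaled to library depth) plus 0.1, less the average of that gene. For the 83 members the median deviation was -0.52 in Abl1ko/IL3+ replicate 1, 0.29 in Abl1ko/IL3+ replicate 2, 0.21 in Abl1ko/IL3- replicate 1 and 0.05 in Abl1ko/IL3- replicate 2. The cultures with IL-3 thus held both the lowest and the highest library, and the cultures without it lay between. Of the 83 members 69 were lowest in replicate 1 with IL-3, against a background of 31.6% of all genes. Replicate 2 with IL-3 was the highest library for 47 members (background 28.3%), and replicate 1 without IL-3 for 30 (background 23.1%).

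**Figure D2:**
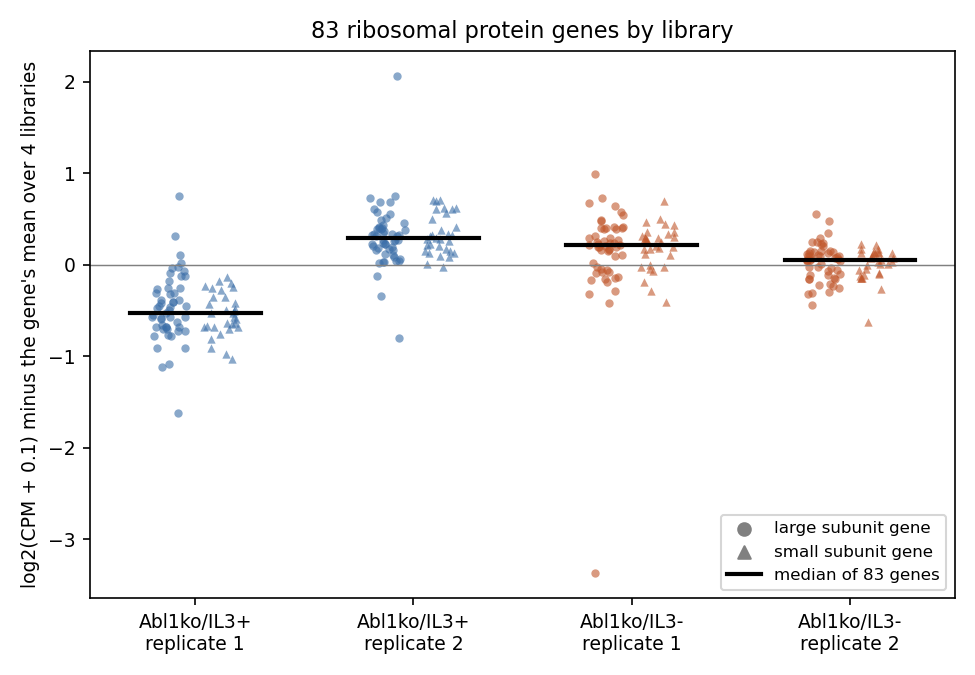
Log2 deviation from the gene's own mean over 4 libraries (y axis) for each of the 83 members in each library (x axis), with circles for large and triangles for small subunit genes and a black bar at the median. The medians are -0.52, 0.29, 0.21 and 0.05, so the 2 libraries with IL-3 (blue) enclose the 2 without it (orange), and the circle far below the others in Abl1ko/IL3- replicate 1 is Rpl29.

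Leaving out a library turned the sign of the median. Without Abl1ko/IL3+ replicate 1 the median log2 fold change was -0.20, with 27 of the 83 members positive, where 53.6% of all genes were. Without Abl1ko/IL3+ replicate 2 it was 0.65, with 74 positive, where 51.5% of all genes were, and 26 past an unadjusted p of 0.05 in edgeR's test (background 16.9%), though 0 past an adjusted p of 0.05. All genes tested had medians of 0.08 and 0.04 in these fits. The sign of the fold change was the same in all 4 such fits and with all libraries for 34 of the 83 members, 26 positive and 8 negative, which is 41.0% against a background of 48.6% of all genes.

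**Figure D3:**
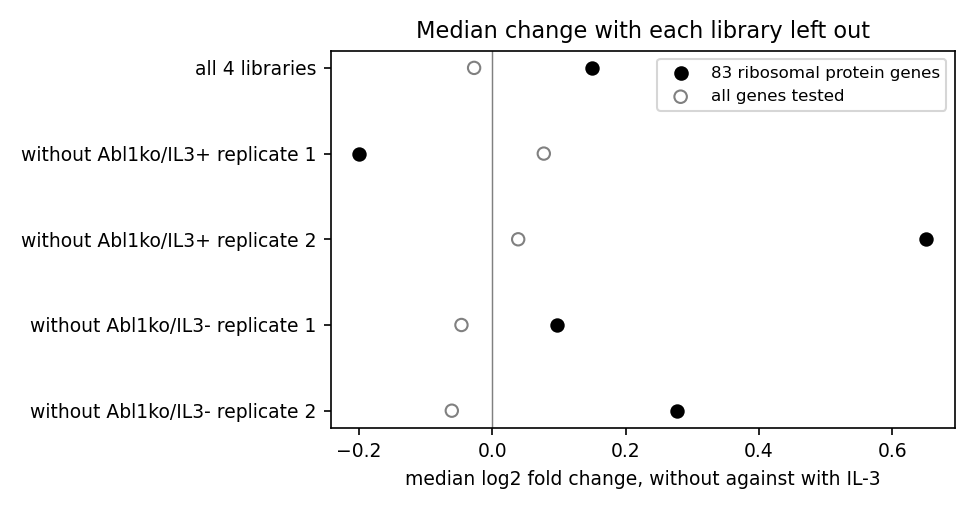
Median of the log2 fold changes between cultures without and with IL-3 (x axis) of the 83 members (filled) and of all genes tested (open), with all 4 libraries and with each library left out (y axis). The filled points run from -0.20 without Abl1ko/IL3+ replicate 1 to 0.65 without Abl1ko/IL3+ replicate 2, while the open points run from -0.06 to 0.08.

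Both libraries without IL-3 lay above both with it for 15 members (18.1%, background 19.4%) and below them for 5 (6.02%, background 17.9%). Together 24.1% of the members had groups that did not overlap, where the background was 37.3%. The count depends on the scaling. Without the TMM factors it was 39, with 31 higher and 8 lower, or 47.0% against a background of 37.0%. With FPKM in place of CPM it was likewise 39, with 31 higher and 8 lower, and the background was 36.8%. The members' share was below the background on TMM-scaled CPM and above it on the other scales.

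Among the members on the higher side, Rpl38 stood first. Rpl38, a large subunit protein known from mouse mutants in which the translation of Hox mRNAs is altered, had 634 and 1227 CPM with IL-3 and 2219 and 1866 CPM without. The groups did not overlap, and the lower library without IL-3 was 1.52-fold above the higher one with IL-3. The mean was 930.4 ± 419.6 CPM with and 2043 ± 249 CPM without IL-3 (SD, n = 2 each), a log2 fold change of 1.13 (SE 0.46, edgeR adjusted p = 0.849). With each library left out the log2 fold change stayed between 0.75 and 1.69.

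Rps12, a protein at the beak of the small subunit, had 579 and 1153 CPM with and 1761 and 1201 CPM without IL-3. Its groups were separated only by the narrow gap between 1153 and 1201 CPM, and the log2 fold change was 0.77 (SE 0.49). Rpl36a, a large subunit protein near the exit site for spent tRNA, had 721 and 1225 CPM with and 1736 and 1329 CPM without IL-3. Here too the groups did not overlap, and the replicate 1 library with IL-3 was far below the others. Rpl3l had 3.88 and 2.39 CPM with and 6.39 and 5.44 CPM without IL-3, and is a member in which replicate 2, not replicate 1, was the lowest library with IL-3. Its log2 fold change was 0.92 (SE 0.51).

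On the lower side, Rpl7a was the most even between replicates. This large subunit protein, whose gene hosts 3 small nucleolar RNAs in the annotation, had 513 and 512 CPM with and 330.0 and 334 CPM without IL-3. The gap between the groups was larger than the spread within either, yet the test, which takes the spread from all genes, gave a log2 fold change of -0.63 (SE 0.31, edgeR adjusted p = 0.86). It stayed between -0.63 and -0.61 with each library left out. Annotated pseudogenes hold 63.4% of the counts of the Rpl7a family, and with their counts added the log2 fold change was -0.41. The pseudogene counts were uneven and overlapped between groups, at 26592 and 67625 with and 31784 and 40310 without IL-3. The evenness and the gap therefore describe the Rpl7a row alone.

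Rpl15, one of the genes mutated in Diamond-Blackfan anemia, had 468 and 595 CPM with and 324 and 389 CPM without IL-3. The groups did not overlap and the log2 fold change was -0.57 (SE 0.34). However, its exons overlap Nkiras1 on the other strand, whose reads cannot be told apart where counting ignores strand. Annotated pseudogenes hold 30.8% of the counts of the Rpl15 family, at 11072 and 11296 with and 4354 and 18062 without IL-3. With their counts added the log2 fold change was -0.37. The gap between the groups therefore describes the Rpl15 row alone. Rpl29, without which mice are viable but small, had 15.5 and 38.7 CPM with and 0.794 and 13.5 CPM without IL-3. It is weakly expressed for a member, its libraries without IL-3 differed more on the log2 scale than the groups, and its log2 fold change of -1.92 had an SE of 1.30. It was -1.004 without replicate 1 and -5.08 without replicate 2 of the cultures without IL-3. The other members with both libraries below, Rps3 and Rpl7l1, had log2 fold changes of -0.47 and -0.38 (Rps3 is named because it completes the 5). Rps18 overlapped between groups, with 279 and 525 CPM with and 242 and 298 CPM without IL-3 and a log2 fold change of -0.57 (SE 0.43) that was -0.94 without replicate 1 and -0.04 without replicate 2 of the cultures with IL-3.

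**Figure D4:**
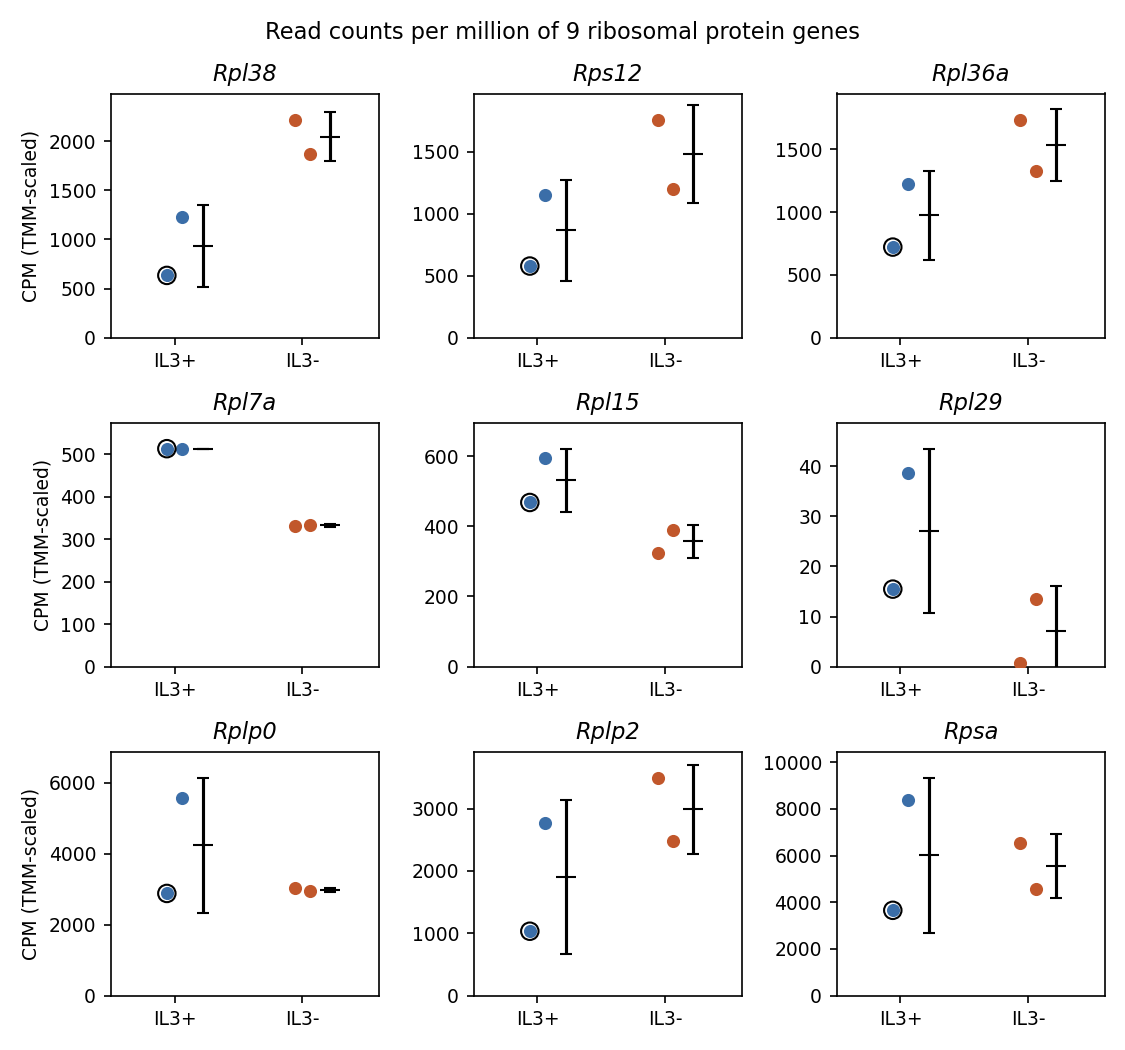
TMM-scaled CPM (y axis, from 0, a scale for each gene) of 9 members in the 2 libraries with IL-3 (blue, replicate 1 ringed) and the 2 without it (orange), with the mean and SD of each group in black. The ringed library is below its partner in 8 of the 9 panels and level with it for Rpl7a, and the lower SD bar of Rpl29 without IL-3 would pass below 0.

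The stalk proteins, which recruit elongation factors to the large subunit, had fitted changes of both signs. Rplp0, the base of the stalk, had 2882 and 5587 CPM with and 3029 and 2946 CPM without IL-3, a log2 fold change of -0.50 (SE 0.47). Its partner Rplp2 had 1033 and 2775 CPM with and 3495 and 2485 CPM without IL-3, a log2 fold change of 0.65 (SE 0.58) that was 0.12 without replicate 1 and 1.54 without replicate 2 of the cultures with IL-3. In the same fits Rplp0 was -0.89 and 0.06. In both genes the lowest library was replicate 1 with IL-3, but the highest was replicate 2 with IL-3 for Rplp0 and replicate 1 without IL-3 for Rplp2.

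Rplp1, the other stalk protein, had 813 and 2273 CPM with and 1997 and 1464 CPM without IL-3. Its groups overlapped, with a log2 fold change of 0.17 (SE 0.58) that was -0.38 without replicate 1 with IL-3. Rpsa, a small subunit protein also known as the laminin receptor, had 3654 and 8359 CPM with and 6518 and 4581 CPM without IL-3. The libraries with IL-3 enclosed those without it, and the log2 fold change of -0.11 (SE 0.55) was 0.61 without replicate 2 with IL-3.

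Further members were named for a known role in signalling or disease. Rps6, the substrate of the S6 kinases, had 2709.7 and 4265 CPM with and 3109 and 2951 CPM without IL-3, and its groups overlapped (log2 fold change -0.20, SE 0.41). Rpl5, which with Rpl11 and 5S RNA binds Mdm2 when ribosome assembly fails, was among the most even members, at 2886 and 3266 CPM with and 2869 and 3109.9 CPM without IL-3. Rpl11 had a log2 fold change of -0.17.

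Rps19 and Rps14, whose loss of 1 copy underlies Diamond-Blackfan anemia and the anemia of the 5q- syndrome, had log2 fold changes of 0.37 and 0.09. For Rps19 the libraries with IL-3 had 1062 and 1895 CPM and those without it 2018 and 1804 CPM, so that replicate 1 with IL-3 stood alone at the low end. Rps27a, made as a fusion with ubiquitin, and Rpl13a, which can leave the ribosome to silence mRNAs of inflammation, had values of 0.31 and 0.30. Of the 5 most abundant members per length other than Rpl38, Rps15 had 0.29, Rps29 0.19, Rplp1 0.17 and Rpl36 -0.05.

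Paralog pairs were compared as the FPKM of the paralog in percent of its partner within each library, which does not depend on the scaling between libraries. Rpl22l1, the paralog that can replace Rpl22, stood at 12.8% and 17.9% of Rpl22 with IL-3 and at 20.4% and 16.5% without. The groups overlapped. Rps27l, a p53 target gene, stood at 11.2% and 10.2% of Rps27 with and at 14.8% and 11.9% without IL-3, higher in both libraries without IL-3. Rpl36al stood at 96.7% and 128% of Rpl36a with and at 82.4% and 95.6% without IL-3, lower in both libraries without IL-3 but by a narrow margin.

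Rpl7l1 stood at between 5.09% and 7.49% of Rpl7, and Rpl3l at under 1% of Rpl3 in every library, from 0.215% to 0.795%. Both overlapped between groups, so the paralog values describe 5 pairs of which 2 separated the groups. On FPKM of single genes, the groups did not overlap for 36.8% of all genes tested. The 2 of 5 is therefore not read as a trait of the paralogs. The log2 fold changes of the paralogs were 0.55 for Rpl22l1 (Rpl22 0.31), 0.38 for Rps27l (Rps27 0.05), 0.26 for Rpl36al (Rpl36a 0.66), -0.38 for Rpl7l1 (Rpl7 -0.21) and 0.92 for Rpl3l (Rpl3 -0.08). Rpl10, Rpl39 and Rps4x, which have paralogs not analysed here, had -0.23, 0.25 and 0.02.

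Reads of this family were also counted in rows of processed pseudogenes. How reads that match several places were counted is not given in the sources used here, and the shares that follow depend on it. The table has 208 rows ending in -ps that belong to 55 of the members, with 1.33% and 2.14% of all counts with IL-3 and 1.81% and 1.84% without. They held over 50 percent of the family's counts for 6 members: 98.4% for Rpl21, 94.5% for Rps2, 67.9% for Rpl17, 63.4% for Rpl7a, 56.9% for Rps18 and 52.6% for Rps12. Values of these genes are uncertain for that reason. Adding the pseudogene counts to the parent turned the sign for 3 members, Rpl21 from 0.73 to -0.12, Rps2 from 0.12 to -0.61 and Rps26 from 0.15 to -0.21 (Rps2, Rps26 and Rpl17 were named after their values were seen). The members' median was then 0.10, with 53 positive.

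What the members shared with other short mRNAs was their order across libraries. The principal mRNA of the 81 protein-coding members had a median length of 886 nt, against 2892 nt for 12073 other protein-coding genes, and 50 of the 81 were at most 1000 nt long. The 834 other protein-coding genes of that length had median deviations of -0.57, 0.34, 0.20 and 0.05 in Abl1ko/IL3+ replicates 1 and 2 and Abl1ko/IL3- replicates 1 and 2, next to -0.52, 0.29, 0.21 and 0.05 for the members. For the 2161 genes with mRNAs over 5000 nt the order was turned round in the libraries with IL-3, at 0.33 and -0.23. Within the members, 38 of the 50 short ones were positive (median log2 fold change 0.20), and 16 of the 31 longer ones (median 0.04). The other protein-coding genes of at most 1000 nt had a median log2 fold change of 0.12. For those of 1000 to 2000 nt it was 0.002. In the libraries as listed above the short members had median deviations of -0.53, 0.28, 0.24 and 0.06. The longer members ranked the libraries alike, at -0.46, 0.37, 0.19 and -0.05. For the 2652 other protein-coding genes of 1000 to 2000 nt the values were -0.24, 0.21, 0.06 and 0.01. After a loess correction for gene length the members' median was 0.12, with 51 positive. That correction used the summed exons of all isoforms as the length, so it is not a correction for the mRNA lengths given here. The part of mRNA length in the result was not tested beyond these values.

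**Figure D5:**
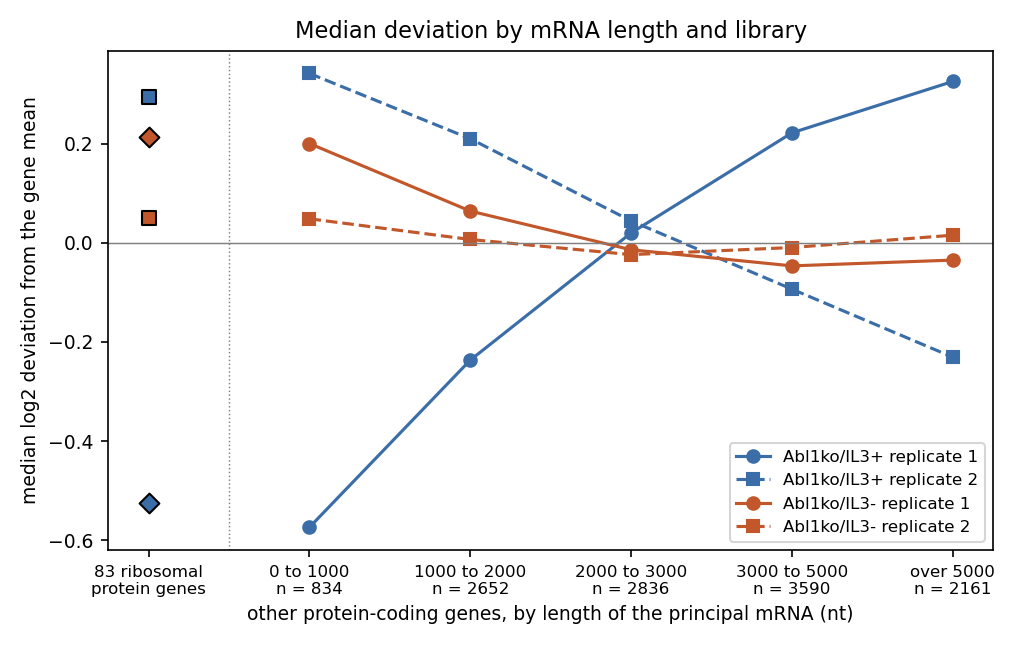
Median log2 deviation from the gene mean (y axis) in each library for the 83 members (left) and for other protein-coding genes in bins of principal mRNA length (x axis, nt, with the number of genes). The members lie close to the genes of at most 1000 nt, and the line of Abl1ko/IL3+ replicate 1 climbs from -0.57 to 0.33 with length while that of replicate 2 descends from 0.34 to -0.23.

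The mitochondrial ribosomal proteins, which serve a separate ribosome and are not known for TOP motifs, had the same order of libraries. Their 78 genes had median deviations of -0.65 and 0.51 in the cultures with IL-3, then 0.27 and -0.04 in those without it, and 68 of them were lowest in replicate 1 with IL-3. Their median log2 fold change was 0.12, with 47 positive and 31 negative and 0 past the adjusted threshold, and it was -0.35 without replicate 1 with IL-3. None of their annotated starts had a C followed by 4 pyrimidines (0 of 75), though 35 of the 75 had a pyrimidine run near the start.

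The translation factors known for TOP motifs leaned the other way. Of 25 such genes 7 had a positive and 18 a negative log2 fold change, with a median of -0.14 and 0 past the adjusted threshold in edgeR's test (0 at an unadjusted p under 0.05). Without replicate 2 with IL-3 the median was 0.03. Both libraries without IL-3 lay below both with it for 7 of the 25 (background 17.9%). Eef2, which moves the ribosome along the mRNA, had 3376 and 4456 CPM with and 2232 and 2473 CPM without IL-3 (log2 fold change -0.74, SE 0.38). Eef1a1, which delivers tRNAs, had 10059 and 10599 CPM with and 7498 and 7954 CPM without IL-3 (log2 fold change -0.42, SE 0.38). In both genes the groups did not overlap and the replicates within a group lay closer together than for most ribosomal proteins. Tpt1, the translationally controlled tumor protein, was higher in both libraries without IL-3, at 2437 and 2945 CPM with and 4166 and 4085 CPM without (log2 fold change 0.62, SE 0.36). These 3 were named after their values were seen.

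Other components of the ribosome whose symbols the rule does not reach were read the same way. Fau, whose product is cut into a small subunit protein and a ubiquitin-like one, had 983 and 2388 CPM with and 3003 and 2238 CPM without IL-3 (log2 fold change 0.64, SE 0.54). Its groups overlapped and replicate 1 with IL-3 was again lowest. Rps3a1 had a log2 fold change of 0.06, and Rack1, a scaffold on the small subunit, of -0.39. The 6 genes of this list had a median of 0.14, with 0 past the adjusted threshold and 0 at an unadjusted p under 0.05.

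Medians by hosted and overlapping genes are given as a description. The 29 members that host at least 1 small nucleolar RNA had a median log2 fold change of 0.22 and the 54 that host none 0.10. The 61 members whose exons overlap no other gene had a median of 0.19.

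Marker lists and library composition also differed between libraries. Total counts ran from 48953174 to 60382588. The labels call the cells pre-B cells from bone marrow, but 7 pre-B markers summed to 19.6 to 23.4 CPM in all libraries, with Rag1 and Vpreb2 at 0 in some, whereas 9 markers of myeloid progenitors summed to 3027 and 2135 CPM with and 1568 and 989.6 CPM without IL-3. The sums of the progenitor markers did not overlap between groups, and all 8 of them that were tested had negative log2 fold changes (median -0.62, 0 past the adjusted threshold in edgeR's test, 1 at an unadjusted p under 0.05). Gene by gene, both libraries without IL-3 lay below both with it for 2 of the 8 (background 17.9%). The groups overlapped for the other 6. Erythroid markers (7 genes, globins in the main) summed to 287 and 10183 CPM with and 4870 and 2713 CPM without IL-3, the same order of libraries as the ribosomal proteins. Mast cell markers (5 genes) summed to 573 and 78.6 CPM with and 138 and 114 CPM without IL-3. The single genes did not share that order: in replicate 1 with IL-3, 2 of the 5 were highest and 2 lowest. Their median deviation was 0.25 in that library and 0.37 in replicate 2 with IL-3. Markers of maturing granulocytes (10 genes) summed to 1287 and 398 CPM with and 1100 and 6120 CPM without IL-3. Those sums overlapped, but all 9 genes tested had positive log2 fold changes (median 4.23) and were highest in replicate 2 without IL-3. In edgeR's test 0 passed the adjusted threshold and 5 an unadjusted p under 0.05 (background 5.91%). Both libraries without IL-3 lay above both with it for 5 of the 9 (55.6%, background 19.4%). The rows AY036118 and CT010467 took between 1.93% and 6.84% of the counts together, lowest in replicate 2 without IL-3 and highest in replicate 2 with IL-3. Mitochondrially encoded genes took 2.55% and 1.28% with and 4.01% and 3.31% without IL-3, and the nuclear RNAs Neat1 and Malat1 were likewise higher in both libraries without IL-3. The part of these markers and rows in the ribosomal protein levels was not tested. Abl1 itself gave 20.5 and 40.9 CPM with and 32.3 and 38.9 CPM without IL-3, and since editing by CRISPR need not lower the mRNA, its level does not check the labels.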

How the data were processed

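RNA-seq was run on 4 libraries of 32D (32Dcl3) cells, 2 with and 2 without IL-3. Per the labels, total RNA was depleted of ribosomal RNA. The authors' text describes alignment to GRCm38 with Rsubread and gene counts from featureCounts, whereas the submitters' processing notes name STAR, Cuffdiff and mm10; which step used which tool, the versions and the strand setting are not given in the sources used here. The authors deposited whole-number counts per gene and FPKM values, and the counts were identical in both tables.

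The members and all gene lists were chosen with earlier results of these data known. Samples were grouped by the labels. Counts were normalized with TMM and tested with edgeR 4.0.16 (filterByExpr, quasi-likelihood F test, two-sided, Benjamini-Hochberg over 16535 genes, threshold 0.05) in R 4.3.3, after the steps had been tested on simulated data. Alternatives were DESeq2 1.42.0, library size alone, other filters, the replicate number as a block, a loess correction for gene length (span 0.3), limma 3.58.1 on log2(FPKM + 1) and log2(FPKM + 0.1), and leaving out each library; the crossed pairing and the fits on pseudogene rows were added after the data were seen. A fit without a library leaves 1 sample in a group, which is assumed to vary like the others. With 3 counts as the floor, a library of these depths resolves 0.0497 to 0.0613 CPM. Some single genes of the lists are not reported here. Genes were named by rule: stalk proteins and Rpsa, paralog pairs, members of known role, the 5 highest and 3 lowest in mean FPKM, and the 5 highest and 5 lowest log2 fold changes. Lengths and overlaps came from GENCODE release M21, and promoters from RefSeq GRCm38.p6. The loess correction used the summed exons of all isoforms as the length, and the length bins the principal mRNA. No library repeated another: a chi-square test over genes found more than sampling noise between any pair.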

Additional observations from a re-analysis of the deposited data

How the results depend on the processing

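Across all alternatives 0 of the 83 members passed an adjusted p of 0.05. Over all genes the count of calls was 0, but 271 with DESeq2 and from 0 to 22 with a library left out. The members' median log2 fold change of 0.15 ranged from -0.20 to 0.65 with a library left out and the count of positive members from 27 to 74. The count of members whose groups did not overlap, 20, was 39 with library size alone and 39 with FPKM, and from 24 to 76 with a library left out. With 1 library against 2 fewer values need to separate: without Abl1ko/IL3+ replicate 1 there were 15 higher and 48 lower (75.9% of members, 77.2% of all genes), and without Abl1ko/IL3+ replicate 2 71 higher and 5 lower (91.6% against 81.3%). Without Abl1ko/IL3- replicates 1 and 2 the shares were 28.9% against 54.5% and 51.8% against 60.7%. The median of the large minus the small subunit genes, -0.0073, was -0.048 with the replicate block, -0.0496 with the block and the length correction, -0.047 and -0.048 in the limma fits, -0.048 under the crossed pairing, 0.041 with pseudogene rows added, and -0.073 to -0.014 with a library left out. The median of the translation factors ranged from -0.43 to 0.033 and that of the mitochondrial ribosomal proteins from -0.35 to 0.79 with a library left out.

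The labels number the replicates alike in both groups but name no shared source, and same-numbered libraries did not deviate together (correlation -0.19 over 16535 genes), so the numbers were not taken to pair the libraries. With the replicate block the members' median was 0.24, with 63 positive and 1 at an unadjusted p under 0.05, where all genes had a median of 0.03, 52.2% positive and 3.31% at that p. The crossed pairing gave 0 calls over all genes.

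Fitted signs turned for genes close to 0. With the replicate block Rpl3 was 0.016 and Rpl36 0.035. With the block and the length correction Rpl3 was 0.028, Rps4x -0.014, Rpl5 0.0084 and Rps3a1 -0.017. With the length correction alone Rps4x was -0.0301, Rps27 -0.0037, Rpl5 0.00303 and Rps3a1 -0.016. In limma with a pseudocount of 1 and of 0.1, Rpsa was 0.0022 and 0.0022, Rpl3 0.034 and 0.034, and Rpl36 0.054 and 0.054. With library size alone Rpl5 was 0.00203 and Rpl36 0.024, under the crossed pairing Rpl3 was 0.016 and Rpl36 0.035, and with pseudogene rows Rpl21 was -0.12. With a library left out the range was -0.89 to 0.055 for Rplp0, -0.38 to 1.09 for Rplp1, -0.58 to 0.61 for Rpsa, -0.52 to 0.59 for Rpl3, -0.56 to 0.081 for Rpl7, -0.20 to 0.96 for Rpl36al, -0.015 to 0.59 for Rpl39, -0.25 to 0.39 for Rps4x, -0.26 to 0.48 for Rps27, -0.48 to 0.16 for Rps6, -0.11 to 0.055 for Rpl5, -0.49 to 0.25 for Rpl11, -0.37 to 0.80 for Rps14, -0.12 to 0.93 for Rpl13a, -0.12 to 0.89 for Rps15, -0.47 to 0.58 for Rpl36, -0.15 to 0.65 for Rps29, -0.087 to 1.42 for Rpl21, -0.092 to 0.24 for Rps3a1 and -0.19 to 0.80 for Abl1. The cause of these turns was not tested. With 2 libraries a group, precision is limited by the spread between replicates and not by depth.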

Other observations

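The genes known to govern ribosomal protein synthesis were read from a list of 20 regulators. Of these 7 had a positive and 13 a negative log2 fold change, with a median of -0.19, 0 past an adjusted p of 0.05 and 1 at an unadjusted p under 0.05 in edgeR's test (background 5.91%). That gene was Mxd4, which competes with Myc for Max, at 129.5 and 99.9 CPM with and 41.2 and 19.5 CPM without IL-3, a log2 fold change of -1.92 (SE 0.48, edgeR adjusted p = 0.73). Myc had 221 and 239 CPM with and 149 and 199 CPM without IL-3 (log2 fold change -0.40, SE 0.33), and Larp1 had 50.5 and 41.4 CPM with and 37.8 and 31.4 CPM without (log2 fold change -0.41, SE 0.33). Mtor had 27.8 and 26.8 CPM with and 23.6 and 25.7 CPM without IL-3 (log2 fold change -0.15, SE 0.33). Both libraries without IL-3 lay below both with it for 7 of the 20 (background 17.9%), Mxd4, Myc, Larp1 and Mtor among them, and above for 1 (background 19.4%).

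Eif4e, the cap-binding protein, differed by replicate number rather than by group, with 101 and 131 CPM in the replicate 1 libraries and 16.7 and 19.3 CPM in the replicate 2 libraries of the cultures with and without IL-3. Rpl41, a very short member, had 377 and 1931 CPM with and 1852 and 1358 CPM without IL-3, a gap between the libraries with IL-3 larger than that between any library with and any without it. Mxd4, Eif4e and Rpl41 were named after their values were seen.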
